A study of Mus musculus with 4 samples.

Results

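The 10 genes described here encode the core of the Tgf-beta pathway: the ligands Tgfb1 and Tgfb3, the receptor chains Tgfbr1 and Tgfbr2, the signalling proteins Smad2, Smad3, Smad4 and Smad7, and the Smad corepressors Ski and Skil. They were chosen by symbol from the 23699 entries of the deposited expression table, and each of the 10 symbols had 1 entry. RNA came from splenic B cells of C57BL/6 mice that were kept with an antibody to Cd40 for 48 h, with LPS, PMA and ionomycin present for the last 5 h. B10+ cells were sorted from these cultures as Cd1d high, Cd5 positive and Il10 positive. B10- cells were sorted from the same cultures as negative for Cd1d, Cd5 and Il10. There are 2 cultures, each of which gave 1 B10+ and 1 B10- library, and all 4 libraries carry the same stimulation. No unstimulated library was analysed here.

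Tgf-beta is secreted as a latent complex and, once released, binds the type II receptor Tgfbr2, which then phosphorylates the type I receptor Tgfbr1. Tgfbr1 phosphorylates Smad2 and Smad3, which join Smad4 and enter the nucleus to regulate genes. Smad7 blocks the receptor complex, and Ski and Skil hold Smad complexes in a repressed state. In B cells the pathway is known for restraining growth and for directing class switching to IgA, and Tgf-beta made by B cells has been counted among the products of regulatory B cells.

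Levels are FPKM, fragments scaled for transcript length and library size, so they can be compared between genes within a library. The depth of the libraries is unknown. Entries listed at 0 made up 19.4% and 36.2% of the table in B10+ culture 1 and culture 2, against 34.5% and 37.3% in the B10- libraries. Il10 was at 1683 and 2329 FPKM in B10+ cells and at 9.26 and 9.62 FPKM in B10- cells of cultures 1 and 2, as sorted. The other sorted genes were low. Cd5 was at 2.38 and 2.63 FPKM in B10+ cells, against 0.278 and 0.563 FPKM in B10- cells. Cd1d1 was at 2.76 and 0.879 FPKM in B10+ cells, against 1.01 and 0.235 FPKM in B10- cells, so its subsets overlap across cultures. All 7 pan B cell markers examined passed the filter on low values, with 3 higher and 2 lower in B10+ cells in both cultures. Cd79b was at 116 and 11.5 FPKM in B10+ cells, against 105 and 2.34 FPKM in B10- cells of cultures 1 and 2. Ebf1 was at 24.1 and 100.2 FPKM in B10+ cells, against 40.3 and 123.8 FPKM in B10- cells, and Cd22 was also lower in B10+ cells of both cultures, like most of the members. In bulk RNA, fewer cells that use a gene and less of its RNA per cell cannot be told apart.

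The Tgf-beta genes were lower in B10+ than in B10- cells of the same culture with few exceptions, by small margins, and no single gene passed the test over all entries. Of the 9 members tested, 9 were lower in culture 1 and 8 in culture 2, against 51% and 47.4% of all 10367 tested entries. The share lower in both cultures was 8 of 9 members, beside 31.8% of all tested entries. The widest gaps were those of Tgfbr2 and Smad3, the only members whose B10+ libraries both lay below both B10- libraries, an arrangement held by 7.47% of all tested entries. The reverse arrangement was found for 0 members and 6.6% of all tested entries. The median difference of the 9 members in log2(FPKM + 1), B10+ minus B10-, was -0.47 in culture 1 and -0.18 in culture 2, where the medians of all tested entries were -0.01 and 0.02.

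Each difference was tested with limma on log2(FPKM + 1), adjusted by the Benjamini-Hochberg method over all 10367 entries that reached 1 FPKM in at least 2 libraries, with a threshold of 0.05. This scale compresses the differences of genes with low values. Without a term for the culture, 0 of the 9 members and 0 of all entries (0%) were called, with 0 members at an unadjusted p under 0.05 and 1.14% of all entries there. With the culture as a replicate block, 0 of the 9 members were called, beside 81 higher (0.781%) and 8 lower (0.0772%) of all entries. In that fit 4 members (Tgfbr2, Smad3, Skil and Smad2) had an unadjusted p under 0.05, all with lower values in B10+ cells, beside 4.66% of all entries in that direction. Each of the 9 tested members was above 3.8 FPKM in all 4 libraries, so the filter on low values left none of them in through 1 subset alone. The tenth member, Tgfb3, stayed under 1 FPKM and was not tested.

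**Figure D1:**
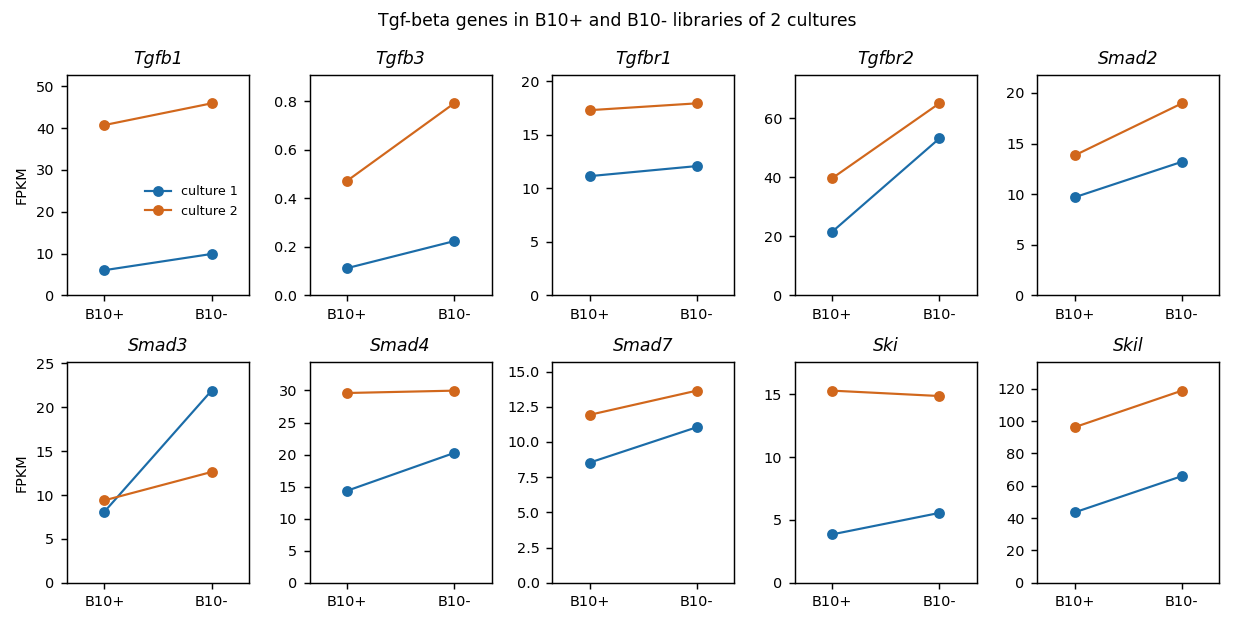
Level of each member in FPKM (vertical axes, from 0, each with its own scale) in the B10+ library and the B10- library of culture 1 (blue) and culture 2 (orange); a line joins the libraries of a culture. The lines run upward to B10- for all genes in both cultures except Ski in culture 2, and for Tgfb1 and Ski the cultures lie farther apart than the subsets.

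Promoter sequence is shown for Tgfbr2 and Smad3, the members with the widest gaps, so that the regions around their start sites can be read beside their values. RefSeq promoter windows on GRCm38.p6 were read for 5 of the 10 members, as the 250 bases before the annotated start on the strand of the gene. No window was found for Tgfb3 and Skil, and those of Smad2, Smad4 and Smad7 were left out. Capitals mark the Smad-binding letters CAGAC or their reverse complement GTCTG. Tgfbr2 lies at chr9:116175364-116175613 on the minus strand and Smad3 at chr9:63757995-63758244 on the minus strand.
Tgfbr2: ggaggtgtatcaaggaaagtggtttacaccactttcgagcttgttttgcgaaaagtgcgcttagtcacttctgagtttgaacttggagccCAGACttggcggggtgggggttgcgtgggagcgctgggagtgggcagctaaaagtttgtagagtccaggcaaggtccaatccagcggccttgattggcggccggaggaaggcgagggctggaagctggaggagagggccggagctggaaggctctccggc
Smad3: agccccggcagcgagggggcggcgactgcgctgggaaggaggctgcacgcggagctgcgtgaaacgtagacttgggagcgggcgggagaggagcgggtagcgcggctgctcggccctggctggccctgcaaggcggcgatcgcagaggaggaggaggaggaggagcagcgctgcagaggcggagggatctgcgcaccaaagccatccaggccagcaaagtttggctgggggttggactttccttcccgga
The Tgfbr2 window held 1 match, which begins at position -160 relative to the annotated start. The Smad3 window held 0 matches, and so did the windows of Tgfb1 and Ski, while the 2 windows of Tgfbr1 held 0 and 1. Of 32851 promoter windows of this length, 42.2% hold at least 1 match on either strand, so the match in Tgfbr2 is a common one. The palindrome GTCTAGAC, which shares no full match with these letters, was found in 0.167% of all windows and in 0 of the 6 windows of these 5 members. Whether the windows of Smad2, Smad4 and Smad7 hold the Smad-binding letters or the palindrome was not examined. GC content was 58.4% for Tgfbr2 and 69.2% for Smad3.

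Among the ligands, Tgfb1 was at 6.04 and 40.7 FPKM in B10+ cells, against 9.92 and 45.9 FPKM in B10- cells of cultures 1 and 2. The gene lies on chromosome 7, from 26472021 to 26490015 (mm9). B10+ values were 60.9% of the B10- value in culture 1 and 88.7% in culture 2, while the cultures differed far more, so the subsets overlap across cultures. The log2 difference was -0.40 ± 0.33 (SD, 2 cultures), with an adjusted p from limma of 0.99999 without the culture and 0.393 with it as a replicate block, where the 95% interval, not adjusted for the number of entries, was -0.90 to 0.09.

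Tgfb3, a ligand that signals through the same receptors, was little expressed (chromosome 12, 87397693 to 87419991, mm9). It was at 0.112 and 0.472 FPKM in B10+ cells, against 0.224 and 0.791 FPKM in B10- cells of cultures 1 and 2. B10+ was the lower library in both cultures, at levels too low to enter the test. Within a library Tgfb1 exceeded Tgfb3 by 53.7-fold and 86.3-fold in B10+ cells and by 44.3-fold and 58.1-fold in B10- cells.

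Tgfbr2, the receptor chain that binds the ligand first, had the largest mean difference of the members. It was at 21.6 and 39.8 FPKM in B10+ cells, against 53.2 and 65.1 FPKM in B10- cells of cultures 1 and 2. Both B10+ libraries lay below both B10- libraries, by a factor of 2.46 within culture 1 and 1.64 within culture 2. The log2 difference was -0.98 ± 0.40 (SD, 2 cultures), with an adjusted p from limma of 0.99999 without the culture and 0.140 with it as a replicate block, where the 95% interval was -1.49 to -0.47. After each library was divided by its median and the block kept, the adjusted p by limma was 0.0492, the one setting of those tried in which a member was called. Of all 10367 tested entries, 26 (Tgfbr2 among them) were at least as low as Tgfbr2 in both cultures. Tgfbr2 lies on chromosome 9, from 115996813 to 116084481 (mm9).

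Tgfbr1, the kinase chain that passes the signal to the Smads, was close between subsets (chromosome 4, 47366177 to 47427796, mm9). It was at 11.1 and 17.3 FPKM in B10+ cells, against 12.1 and 17.9 FPKM in B10- cells of cultures 1 and 2. B10+ values were 92.2% and 96.4% of those in B10- cells, and the libraries of a subset lay farther apart than the subsets. The 95% interval of the log2 difference in the blocked fit was -0.49 to 0.34 around -0.08 (adjusted p by limma = 0.831 in the blocked fit). The mean difference of Tgfbr2, -0.98, lies outside this interval, but the interval of Tgfbr2, -1.49 to -0.47, overlaps it. Tgfbr1 and Tgfbr2 were not tested against each other. The ratio of Tgfbr2 to Tgfbr1, both per length, was 1.94 and 2.30 in B10+ libraries against 4.405 and 3.63 in B10- libraries. This ratio was picked after the values were seen and is given as a description with no test.

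Smad3 showed the widest gap in a single culture. It was at 8.10 and 9.39 FPKM in B10+ cells, against 21.9 and 12.6 FPKM in B10- cells of cultures 1 and 2, with no overlap between the subsets. B10+ values were 37.0% of the B10- value in culture 1 and 74.4% in culture 2. Its log2 difference was -0.86 ± 0.66 (SD, 2 cultures), with an adjusted p from limma of 0.99999 without the culture and 0.286 with it as a replicate block. The B10- library of culture 1 stands apart from the other 3 libraries for this gene. Smad3 lies on chromosome 9, from 63494574 to 63605801 (mm9).

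Smad2, which is activated by the same receptor, had about the same gap in each culture (chromosome 18, 76401355 to 76471401, mm9). It was at 9.70 and 13.8 FPKM in B10+ cells, against 13.2 and 19.0 FPKM in B10- cells of cultures 1 and 2, or 73.5% and 73.0% of the B10- values. The groups overlap across cultures, and the level was higher in culture 2 in both subsets. The log2 difference was -0.42 ± 0.01 (SD, 2 cultures; adjusted p by limma = 0.327 in the blocked fit). Smad3 relative to Smad2 was 0.835 and 0.679 in B10+ libraries, against 1.66 and 0.666 in B10- libraries, so Smad3 outnumbered Smad2 per length in the B10- library of culture 1 alone.

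Smad4, the shared partner of the receptor-activated Smads, was at 14.4 and 29.6 FPKM in B10+ cells, against 20.3 and 30.0 FPKM in B10- cells of cultures 1 and 2. The gap was present in culture 1 and near 0 in culture 2, at log2 differences of -0.47 and -0.02. Smad4 lies on chromosome 18, from 73798667 to 73863395 (mm9). Its adjusted p by limma was 0.548 in the blocked fit, and its 95% interval ran from -0.72 to 0.24.

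Smad7, the inhibitory Smad that the pathway itself induces, was at 8.53 and 11.9 FPKM in B10+ cells, against 11.0 and 13.6 FPKM in B10- cells of cultures 1 and 2. B10+ was the lower library of each culture, with overlap across cultures. Smad7 lies on chromosome 18, from 75527019 to 75555588 (mm9). The log2 difference was -0.26 ± 0.11 (SD, 2 cultures; adjusted p by limma = 0.498 in the blocked fit), with a 95% interval of -0.70 to 0.18.

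Skil, which encodes the corepressor SnoN and is also induced by Tgf-beta, was the most abundant member in every library (chromosome 3, 30993983 to 31021499, mm9). It was at 43.6 and 96.3 FPKM in B10+ cells, against 66.0 and 118.9 FPKM in B10- cells of cultures 1 and 2. B10+ was lower within each culture, and the groups overlap across cultures. The log2 difference was -0.44 ± 0.20 (SD, 2 cultures; adjusted p by limma = 0.288 in the blocked fit), with a 95% interval of -0.83 to -0.06. Its mean level exceeded that of 87.9% of all tested entries.

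Ski, the other corepressor, was the one member whose cultures differed in sign (chromosome 4, 154528184 to 154596644, mm9). It was at 3.85 and 15.3 FPKM in B10+ cells, against 5.56 and 14.9 FPKM in B10- cells of cultures 1 and 2. The log2 differences of 0.04 in culture 2 and -0.43 in culture 1 have opposite signs, and after quantile normalization or median scaling the difference in culture 2 was -0.07 or -0.08. Its adjusted p by limma was 0.660 in the blocked fit, and its 95% interval ran from -0.74 to 0.34. Skil exceeded Ski by 11.3-fold and 6.30-fold in B10+ libraries, against 11.9-fold and 7.995-fold in B10- libraries.

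**Figure D2:**
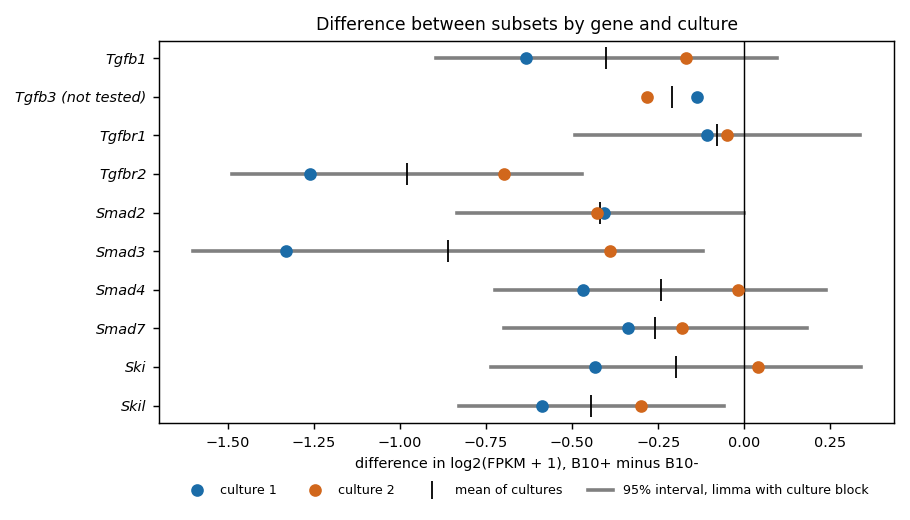
Difference in log2(FPKM + 1), B10+ minus B10-, for each member (rows) in culture 1 (blue) and culture 2 (orange), with the mean of the cultures (black tick) and the 95% interval of limma with the culture block (grey bar). Tgfbr2 and Smad3 lie farthest to the left, at means of -0.98 and -0.86, Tgfbr1 lies nearest to 0, and Ski is the one member with a point to the right of 0.

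In level per length, Skil ranked first and Tgfb3 last of the 10 genes in each of the 4 libraries. Tgfbr2 ranked second in 3 of the 4, and in the B10+ library of culture 2 it stood at 39.8 FPKM just under Tgfb1 at 40.7 FPKM. Below them, Tgfbr1, Smad2, Smad7 and Smad3 had mean levels of 14.2 ± 4.35, 11.8 ± 2.93, 10.2 ± 2.40 and 8.75 ± 0.91 FPKM in B10+ cells (SD, n = 2), in this order in both B10+ libraries. The gaps between neighbouring means were smaller than the SD of Tgfbr1 and that of Smad2. In B10- cells the same genes averaged 15.0 ± 4.14, 16.1 ± 4.08, 12.3 ± 1.84 and 17.3 ± 6.55 FPKM (SD, n = 2). Smad3 ranked first of these 4 in the B10- library of culture 1, at 21.9 FPKM, and last in that of culture 2, at 12.6 FPKM.

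The genes whose profile over the 4 libraries was most like that of Tgfbr2 were Tesk1 (a protein kinase), Tbx21 (T-bet, a transcription factor) and Rbpms, by the Euclidean distance between profiles of log2(FPKM + 1) centred on their own means, over 4 libraries. The distances were 0.192, 0.196 and 0.248. Tesk1 was at 3.93 and 7.94 FPKM in B10+ cells, against 9.31 and 11.7 FPKM in B10- cells of cultures 1 and 2. For Smad3 the nearest were Maff (a small Maf transcription factor), Plaur (the urokinase receptor) and Hspa1a (a heat shock protein), at distances of 0.157, 0.157 and 0.218. Plaur was at 8.77 and 10.9 FPKM in B10+ cells, against 27.4 and 15.4 FPKM in B10- cells, and like Smad3 it was highest in the B10- library of culture 1.

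The rest of the pathway did not share one direction. No gene of the 7 lists examined passed limma over all entries, with the block (beside 0.858% of all entries) or without it (0%). Genes that process, hold or release latent Tgf-beta had higher values in B10+ cells, with 4 of 4 tested genes higher in both cultures and a median log2 difference of 0.33, beside 33.4% of all tested entries higher in both and a median of 0.00 over all entries. These were Itgav (the integrin alpha V chain, which binds latent Tgf-beta), Furin (the protease that cleaves its precursor), Lrrc32 (GARP, which holds it on the cell surface) and Itgb1. Itgav was at 18.1 and 105.0 FPKM in B10+ cells, against 17.2 and 46.9 FPKM in B10- cells of cultures 1 and 2, so its gap rests on culture 2. Furin was at 10.1 and 106 FPKM in B10+ cells, against 8.34 and 78.1 FPKM in B10- cells (adjusted p by limma = 0.364 in the blocked fit). Lrrc32 was at 2.60 and 7.26 FPKM in B10+ cells, against 1.57 and 6.40 FPKM in B10- cells. Itgb1 was at 52.4 and 77.3 FPKM in B10+ cells, against 50.7 and 56.8 FPKM in B10- cells, so its gap also rests mostly on culture 2. In the blocked limma fit 0 of the 4 genes had an unadjusted p under 0.05, beside 10.5% of all entries with higher values. The list held 21 genes, of which 20 are in the table and 4 passed the filter on low values.

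Receptor accessory genes had no common direction, with 1 of 4 tested genes higher in both cultures and 2 lower in both. Strap, a Wd-repeat protein that binds the receptors, was at 168 and 159 FPKM in B10+ cells, against 182 and 163 FPKM in B10- cells. Fkbp1a, which binds the type I receptor, was at 23.2 and 88.0 FPKM in B10+ cells, against 22.8 and 60.2 FPKM in B10- cells. Bambi, a decoy receptor, was under 2 FPKM in all 4 libraries, and Tgfbrap1 differed in sign between the cultures.

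Regulators of the Smads were divided, with 6 of 23 tested genes higher in both cultures and 8 lower in both and a median log2 difference of 0.00. Tgif1, a corepressor of Smad complexes, was at 82.4 and 154 FPKM in B10+ cells, against 130 and 198 FPKM in B10- cells, with the smallest p of this list (adjusted p by limma = 0.251 in the blocked fit). Wwp2, a ubiquitin ligase of Smads, was at 15.3 and 16.7 FPKM in B10+ cells, against 19.7 and 23.4 FPKM in B10- cells. Usp11 and Ctdsp2 had positive log2 differences of 0.36 and 0.40.

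Transcription factors and coactivators that work with Smads were lower in both cultures for 7 of 13 tested genes and higher in both for 0, beside 31.8% and 33.4% of all tested entries. Runx1, a partner of Smad3, had the largest gap of this list. It was at 5.05 and 18.4 FPKM in B10+ cells, against 10.2 and 32.0 FPKM in B10- cells of cultures 1 and 2, so that log2 values differed by -0.83 ± 0.08 (SD, 2 cultures; adjusted p by limma = 0.137 in the blocked fit). Zeb2, Zeb1 and Crebbp (the CBP acetyltransferase) had log2 differences of -0.38, -0.33 and -0.33.

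**Figure D3:**
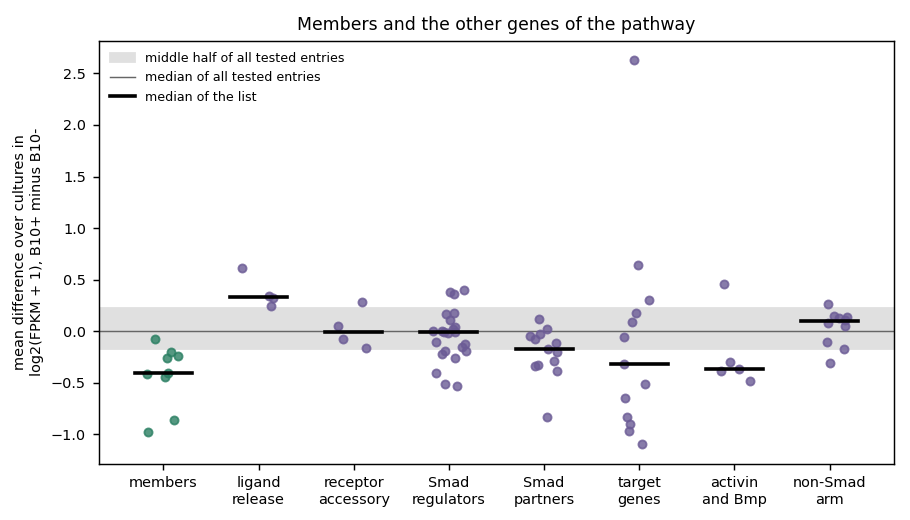
Mean difference over the cultures in log2(FPKM + 1), B10+ minus B10- (vertical axis), for the tested members and the tested genes of 7 other lists of the pathway (points), with the median of each list (black bar), the median of all tested entries (grey line) and their interquartile range (grey band). The members' median is -0.40, the ligand release genes lie above the band, and 1 target gene, Cdkn2b, stands at 2.63.

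Genes known to respond to Tgf-beta were more often lower than higher in B10+ cells. The list mixes genes that Tgf-beta induces, such as Cdkn2b, with genes that it lowers, such as Myc, so its counts give no direction of response. Tgif1 and Pmepa1 are also in the list of Smad regulators. Of 18 listed, 13 were tested, and 8 of these were lower in both cultures and 4 higher in both, beside 31.8% and 33.4% of all tested entries. Their median log2 difference was -0.32, against 0.00 over all entries. In the blocked fit 6 of them had an unadjusted p under 0.05 with lower values and 2 with higher values, beside 4.66% and 10.5% of all entries, and 0 were called after adjustment. Cdkn2b, a cell cycle inhibitor that Tgf-beta induces in epithelial cells, had the widest gap of the tested pathway genes and in the direction opposite to the members. It was at 46.0 and 11.2 FPKM in B10+ cells, against 4.37 and 1.79 FPKM in B10- cells of cultures 1 and 2. Its log2 difference was 2.63 ± 0.71 (SD, 2 cultures; adjusted p by limma = 0.0557 in the blocked fit, just short of the threshold). Id2, an inhibitor of E-protein transcription factors, was at 82.4 and 125 FPKM in B10+ cells, against 63.5 and 66.1 FPKM in B10- cells.

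The 4 lowest genes of this list were Bcl2l11, Klf10, Myc and Id1. Bcl2l11 (Bim, a death-promoting Bcl2 relative) was at 10.3 and 61.96 FPKM in B10+ cells, against 20.6 and 149 FPKM in B10- cells of cultures 1 and 2 (adjusted p by limma = 0.0805 in the blocked fit). Myc, a transcription factor of growth that Tgf-beta lowers in epithelial cells, was at 28.6 and 249 FPKM in B10+ cells, against 56.6 and 449 FPKM in B10- cells (adjusted p by limma = 0.0813 in the blocked fit). Id1 was at 0.654 and 1.01 FPKM in B10+ cells, against 2.02 and 2.48 FPKM in B10- cells, so that log2 values differed by -0.83 ± 0.05 (SD, 2 cultures; adjusted p by limma = 0.126 in the blocked fit). Klf10, an early Tgf-beta response gene, was at 12.2 and 5.42 FPKM in B10+ cells, against 33.8 and 8.34 FPKM in B10- cells. Smad7 and Skil, the members that are themselves induced by the pathway, were lower within both cultures, as given above.

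**Figure D4:**
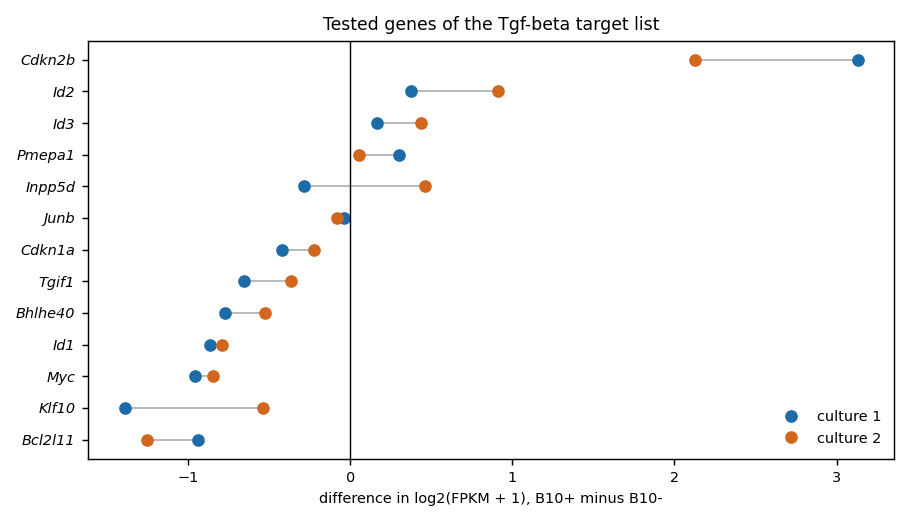
Difference in log2(FPKM + 1), B10+ minus B10-, for the 13 tested genes of the target list (rows) in culture 1 (blue) and culture 2 (orange), joined by a line. Cdkn2b stands at 3.13 and 2.13, Bcl2l11 at -0.94 and -1.26, and Inpp5d is the one gene whose cultures lie on opposite sides of 0.

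The activin and Bmp branch, which uses related receptors and Smads, was little expressed, with 5 of 24 listed genes tested. Of these, 3 were lower in both cultures and 0 higher. Acvr1b, a type I activin receptor that also acts through Smad2 and Smad3, was at 2.57 and 2.02 FPKM in B10+ cells, against 3.74 and 3.45 FPKM in B10- cells (adjusted p by limma = 0.302 in the blocked fit). Smad5, a Smad of the Bmp branch, was at 4.60 and 10.3 FPKM in B10+ cells, against 6.21 and 13.6 FPKM in B10- cells. Acvr2a and Smad1 had log2 differences of -0.30 and -0.39, and the cultures differed in sign for Smad1. Kinases and adaptors of the Smad-independent arm were divided, with 4 of 10 tested genes higher in both cultures and 2 lower in both. Map2k4, a kinase of the Jnk pathway and the gene with the smallest p of this list, was at 26.2 and 48.7 FPKM in B10+ cells, against 24.0 and 36.8 FPKM in B10- cells (adjusted p by limma = 0.466 in the blocked fit). Tab3, a partner of Tak1, had a log2 difference of -0.31, Map3k7 (Tak1 itself) of -0.17 and Rhoa, a small GTPase, of 0.13.

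Markers of other cell types were examined beside these values, since platelets, T cells and macrophages also use Tgf-beta genes. The platelet genes Pf4 and Ppbp were listed at 0 in all 4 libraries. In both cultures 11 of 13 T cell markers had higher values in B10+ cells, and their summed level was 36.2 and 25.3 FPKM in B10+ libraries, against 18.7 and 7.06 FPKM in B10- libraries. Most of that sum was Cd2 and Lck, and Lck was lower in B10+ cells in culture 1, at 7.93 against 10.1 FPKM. Cd3e, a defining T cell gene, was at 0.0257 and 0.298 FPKM in B10+ cells and listed at 0 in both B10- libraries. Cd3g was at 1.14 and 0.245 FPKM and Cd8b1 at 0.863 and 3.23 FPKM in B10+ cells, both listed at 0 in both B10- libraries. Zap70 was at 0.912 and 1.67 FPKM in B10+ cells, against 0 and 0.0140 FPKM in B10- cells. The 8 macrophage and monocyte markers summed to 10.1 and 8.09 FPKM in B10+ libraries, against 9.29 and 5.47 FPKM in B10- libraries. Of their defining genes, Emr1 (F4/80) was at 2.58 and 2.55 FPKM in B10+ libraries, against 0.836 and 0.220 FPKM in B10- libraries, and Csf1r at 0.0621 and 0.159 FPKM in B10+ libraries, against 0.0409 and 0.374 FPKM in B10- libraries. The 4 natural killer cell markers summed to 1.76 and 2.87 FPKM in B10+ libraries, against 0.136 and 0.113 FPKM in B10- libraries. Most of that sum was Gzmb, at 1.62 and 2.29 FPKM in B10+ libraries, against 0.121 and 0.113 FPKM in B10- libraries. Ncr1 was listed at 0 in all 4 libraries. Dendritic cell markers summed to 29.1 and 9.79 FPKM in B10+ libraries against 41.9 and 6.34 FPKM in B10- libraries, mostly Flt3 and Zbtb46. Erythroid markers summed to 29.0 and 44.0 FPKM in B10+ libraries against 39.7 and 80.9 FPKM in B10- libraries, nearly all of it Hbb-b1, and stromal and endothelial markers to 6.70 and 25.3 FPKM in B10+ libraries against 5.56 and 41.0 FPKM in B10- libraries, nearly all of it Pecam1. The summed platelet markers were at 0.563 and 1.49 FPKM in B10+ libraries against 0.556 and 2.66 FPKM in B10- libraries. All of it was Itga2b and Gp9. Itga2b was at 0.412 and 0.258 FPKM in B10+ libraries, against 0.498 and 0.406 FPKM in B10- libraries. Gp9 was at 0.151 and 1.23 FPKM in B10+ libraries, against 0.0582 and 2.25 FPKM in B10- libraries. Whether cells of these types contributed to the members' values was not tested.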

How the data were processed

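RNA of 2 B10+ and 2 B10- libraries was measured by sequencing after Ribo-Zero depletion of ribosomal RNA, per the labels' protocols. The authors deposited 1 table of FPKM values, per the second deposited sheet, holding 23699 entries, each with its symbol and locus. Cufflinks 2.1.1, TopHat 1.3.2, DESeq, bcl2fastq 1.8.4 and the build mm9 are listed in the submitters' processing notes without roles. What settings, annotation and strand rule were applied is not given in the sources used. Counts could not be recovered from the low values, which are no multiples of a whole read, and no counting interval is given. FPKM is relative within a library, so a few abundant RNAs can lower all other values.

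Values were tested as log2(FPKM + 1) with limma 3.58.1 (limma-trend, two-sided, R 4.3.3) over the 10367 entries with at least 1 FPKM in 2 libraries, with Benjamini-Hochberg adjustment. The labels pair the libraries by culture, and the second deposited sheet calls each culture a batch. Log2 values correlated at 0.965 and 0.947 within cultures 1 and 2, against 0.840 between the B10+ and 0.836 between the B10- libraries, so results are given both without the culture and with it as a replicate block. The blocked fit has 1 residual degree of freedom, and its p-values rest largely on the spread pooled over genes. Replicates are separate cultures per the labels.

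The members and lists were chosen with earlier results of these data known. All 10 members are named, and from each of the 7 pathway lists up to 4 tested genes with the smallest p in the blocked fit; Klf10, Id2, Inpp5d and the ratios between members were added after their values were seen. For the 2 members with the smallest blocked p, the 3 most similar profiles are named, predicted genes left out. Starts of loci count from 0 in the table, so 1 was added to each printed start: of 20982 symbols found in RefSeq, gene length equalled end minus start for 8902 and that value plus 1 for 549. Promoters are from RefSeq on GRCm38.p6, another build than that of the table. No other entry of the table overlaps a member's locus. Some results are not reported here.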

Additional observations from a re-analysis of the deposited data

How the results depend on the processing

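The replicate block for culture gave 81 higher and 8 lower entries, where the fit without it called 0 and 0. With the block, those counts were 53 and 7 at a pseudocount of 0.1, 40 and 5 when low values were not filtered out, 167 and 23 after quantile normalization, and 274 and 38 after median scaling. Without the block, 1 entry was lower at a pseudocount of 0.1 and 1 after median scaling. The block changed the call of none of the 9 tested members except after median scaling. There 1 member, Tgfbr2, was called with the block (log2 difference -1.03) and not without it. The cause of these changes was not tested. No alternative with all 4 libraries turned the mean difference of a member.

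Leaving out a library leaves 1 culture in a subset, so the difference between cultures enters by construction, and the lone library is assumed to vary like the others. Entries called ranged from 1 to 130 higher and from 3 to 14 lower, and 0 members were called. Without B10+ replicate 1 the log2 differences of Tgfb1, Tgfbr1, Smad4, Ski and Skil were 0.88, 0.22, 0.25, 0.68 and 0.12, and without B10- replicate 2 those of Tgfb1, Tgfb3, Tgfbr1, Smad4 and Ski were 0.65, 0.064, 0.19, 0.03 and 0.44. Over the 4 such fits the ranges were -1.68 to 0.88 for Tgfb1, -0.48 to 0.064 for Tgfb3, -0.37 to 0.22 for Tgfbr1, -0.74 to 0.25 for Smad4, -1.07 to 0.68 for Ski and -1.01 to 0.12 for Skil. Tgfbr2 ranged from -1.40 to -0.55 and Smad3 from -1.23 to -0.49. With 2 cultures and unknown depth, small differences cannot be shown or dismissed.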

Other observations

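The cultures differed more than the subsets for several members. Tgfb1 was at 40.7 FPKM in culture 2 and 6.04 FPKM in culture 1 in B10+ cells, a ratio of 6.74, and at 45.9 FPKM in culture 2 and 9.92 FPKM in culture 1 in B10- cells, a ratio of 4.63. Of all 10367 tested entries, 97 (Tgfb1 among them) were higher in culture 2 by at least as much in both subsets. Ski was 3.97 times as high in culture 2 as in culture 1 in B10+ cells and 2.67 times as high in B10- cells. In both subsets 8 of the 9 tested members were higher in culture 2, beside 33.1% of all tested entries, and the exception was Smad3, at 12.6 FPKM in culture 2 and 21.9 FPKM in culture 1 in B10- cells. Both cultures received the same stimulation per the labels. The difference between cultures was not tested and is given as a description.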
